A study of Mus musculus with 8 samples.

Results

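Glycolytic enzymes were described through 10 genes, Hk2, Pfkl, Pfkp, Aldoa, Tpi1, Gapdh, Pgk1, Eno1, Pkm and Ldha, taken by symbol from a table of 32285 genes. All 10 were in the table and all 10 were measured. Whole bone marrow cells of mice had been cultured for 1 week on a layer of irradiated AFT024 cells, a stromal line from embryonic mouse liver, in a long-term culture medium with hydrocortisone that both groups shared. One group received the medium alone (media control) and the other received 35 µM deoxycholic acid, a bile acid that gut bacteria form from cholic acid. Cells without lineage markers were then sorted and sequenced at the 3′ end of transcripts. Neither the strain nor the age or genotype of the mice is given in the labels. The labels list 4 samples in each group, but the cell names carry the group alone, so each group was 1 library with no replicate: no test or p-value was made. Intervals in the text are exact and cover counting error only, since the unique molecular identifiers (UMIs) of 1 cell are not independent draws.

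Glycolysis splits glucose into pyruvate in the cytosol and yields ATP without oxygen. Hexokinase and phosphofructokinase act in its early, energy-using steps, aldolase and triose phosphate isomerase handle the split sugar, and the later enzymes regain ATP and reduced NAD, which lactate dehydrogenase oxidises again. Neutrophils and their precursors in the marrow rely heavily on this pathway, and many of its genes are induced by the hypoxia-inducible factor when oxygen is scarce.

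The hypoxia-inducible factor binds DNA at a short core, ACGTG or GCGTG. All 10 enzymes moved with Bnip3 and Ankrd37, as described further on, and the part of this factor was not tested. Stretches just before the start sites of 4 genes are printed to show where either core occurs. They are the 250 bases before the most upstream start in the RefSeq promoter table of Hk2 (GRCm38.p6, chr6:82774455-82774704, minus strand), Pgk1 (chrX:106186850-106187099, plus strand), Ldha (chr7:46845554-46845803, plus strand) and Gapdh (chr6:125165774-125166023, minus strand), none of which overlaps a GENCODE exon of its gene. The Ldha and Gapdh windows lie inside the RefSeq loci of these genes, which begin further upstream than the tabled starts. Each is written 5′ to 3′ on the gene's strand, with either core on either strand in capitals.
Hk2: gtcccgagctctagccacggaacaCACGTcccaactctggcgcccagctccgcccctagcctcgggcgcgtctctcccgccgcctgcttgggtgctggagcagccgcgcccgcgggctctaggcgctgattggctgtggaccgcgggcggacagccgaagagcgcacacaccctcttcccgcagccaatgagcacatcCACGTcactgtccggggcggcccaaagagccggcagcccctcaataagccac
Pgk1: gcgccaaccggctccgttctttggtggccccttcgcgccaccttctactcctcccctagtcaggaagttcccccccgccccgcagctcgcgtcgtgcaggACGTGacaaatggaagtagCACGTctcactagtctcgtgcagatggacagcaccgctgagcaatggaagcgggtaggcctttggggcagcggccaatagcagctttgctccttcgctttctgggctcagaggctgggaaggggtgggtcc
Ldha: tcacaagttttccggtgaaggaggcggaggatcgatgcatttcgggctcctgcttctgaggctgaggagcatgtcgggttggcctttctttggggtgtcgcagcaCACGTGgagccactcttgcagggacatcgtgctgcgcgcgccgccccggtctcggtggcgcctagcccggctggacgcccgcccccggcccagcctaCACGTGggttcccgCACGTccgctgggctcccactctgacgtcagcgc
Gapdh: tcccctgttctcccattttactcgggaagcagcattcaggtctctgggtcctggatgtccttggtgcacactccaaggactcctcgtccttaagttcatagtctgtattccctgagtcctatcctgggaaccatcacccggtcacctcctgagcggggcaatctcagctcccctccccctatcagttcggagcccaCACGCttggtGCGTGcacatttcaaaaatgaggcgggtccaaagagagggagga
The ACGTG core occurred 2 times in the Hk2 window, 2 times in the Pgk1 window and 5 times in the Ldha window, and Gapdh held the GCGTG core 2 times. An ACGTG core can also be part of an E-box, CACGTG, which other factors bind; in that palindrome 1 site counts on both strands. Over the most upstream tabled windows of the 10 genes, 3 held ACGTG, 4 held GCGTG and 7 held either. The printed windows are the 3 with ACGTG and, of the 4 with GCGTG, that of Gapdh, so all of them hold a core. Those of Aldoa, Tpi1 and Pkm held neither core, while later tabled windows of Aldoa and Pkm held ACGTG. Across all 32851 RefSeq windows of this length, 16.6% held ACGTG, 28.2% held GCGTG and 38.6% held either. A match describes letters and says nothing of binding in these cells.

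A cell needed 300 detected genes and no more than 10% mitochondrial UMIs to be kept, which together with doublet removal left 8495 media control cells (median 18831 UMIs) and 7755 deoxycholic acid cells (median 14424 UMIs). Median mitochondrial shares were 1.82% and 1.88%, and 25 barcodes occurred in both libraries. Although the sort was for cells without lineage markers, the fixed Ngp-stage markers summed to 34431 and 35777 CPM (UMIs of the genes per 1000000 UMIs of the same cells) and the stem and early progenitor markers to 34.2 and 34.3 CPM. Cells were staged along neutrophil formation by 3 granule and late genes at a threshold of 20 UMIs per 10000: Elane, an early granule protease, Ngp, a secondary granule protein, and Retnlg, a gene of late neutrophils. In media control and deoxycholic acid libraries respectively, Elane cells numbered 1151 and 1053, Elane and Ngp cells 2097 and 1656, Ngp cells 4019 and 4053, Ngp and Retnlg cells 283 and 204, and cells above the threshold for none 890 and 749. This last set is mixed and not a single step of neutrophil formation, although it is counted with the stages. Its basophil and mast cell markers summed to 1314 and 1060.3 CPM, and those of eosinophils to 498 and 419.7 CPM. Both sums were above the values in every neutrophil stage. Neutrophil-lineage markers summed to more in the same set, at 8360 and 7055 CPM for the Elane-stage list and 4638 and 5455 CPM for the Ngp-stage list. Cells with Retnlg and no Ngp, 55 and 40, were too few and were left out. Feeder stromal markers summed to 3.17 and 3.76 CPM over 8 genes, with Lum and Postn at 0 in the deoxycholic acid library. Monocyte markers stood at 1121 and 1206 CPM and proliferation markers at 1074 and 1178 CPM, while Elane-stage markers stood at 10331 and 8490.3 CPM, basophil and mast cell markers at 177 and 140.4 CPM, and T and NK cell markers at 128 and 101 CPM. Of the T and NK cell markers, Cd3e and Klrb1c were at 0 in the deoxycholic acid library. Their sum was highest in Elane cells, at 261 and 212 CPM, against 65.4 and 58.3 CPM in cells above no threshold, so it does not mark a T or NK cell population. The part of these shifts between libraries in the enzyme values was not tested.

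Levels over all kept cells were compared first. Hk2, Eno1 and Pfkl were the members with the largest ratios of deoxycholic acid over media control, 6 further enzymes were slightly higher, and Gapdh was slightly lower. Across the 10 genes the median log2 ratio was 0.19, against 0.04 for the 4670 genes that reached 20 CPM and 50 UMIs in the library where they stood higher, of which the central 95% lay between -0.55 and 0.44. At least 1.2-fold higher were 3 of the 10 enzymes, and 13.1% of all genes tested passed the same fold in that direction. None of the 10 was at least 1.2-fold lower, against 11.1% of genes. CPM of a 3′ library are not scaled by transcript length and no order of level between enzymes is drawn from them.

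Among the enzymes of the early steps, Hk2, the inducible hexokinase that phosphorylates glucose, stood at 75.6 CPM in the media control library and 129 CPM with deoxycholic acid, a log2 ratio of 0.77 (95% interval 0.73 to 0.80). No other member had a ratio this far from 0. Pfkl and Pfkp are the liver-type and platelet-type subunits of phosphofructokinase, which commits the sugar to glycolysis. Pfkl was at 25.3 and 32.7 CPM (log2 ratio 0.37, 0.31 to 0.44). Pfkp was at 39.8 and 45.9 CPM (0.20, 0.15 to 0.26). Aldoa, the aldolase that splits fructose bisphosphate, was at 895 and 1007 CPM (0.17, 0.16 to 0.18). The interval of Hk2 lay above those of the other three early-step enzymes, and that of Pfkl lay above those of Pfkp and Aldoa.

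In the later steps the spread was wider in sign. Tpi1, which interconverts the triose phosphates, was at 373 CPM in media control cells and at 392 CPM with deoxycholic acid (log2 ratio 0.07, 0.05 to 0.09). Gapdh, the dehydrogenase that makes reduced NAD and is often used as a reference gene, was at 2569.9 and 2437 CPM (-0.08, -0.08 to -0.07), the only member that was lower, although it lay 0.07 above the median of genes of like transcript length. Pgk1, the first ATP-making kinase of the pathway, was at 348 and 377 CPM (0.12, 0.10 to 0.13). Eno1, the enolase that makes phosphoenolpyruvate, was at 429 and 571 CPM (0.41, 0.40 to 0.43) and was the member second in ratio to Hk2. Pkm, the pyruvate kinase gene, was at 622 and 725 CPM (0.22, 0.21 to 0.23). Ldha, the lactate dehydrogenase subunit that favours lactate production, was at 679 and 709 CPM (0.06, 0.05 to 0.07). The counts are per gene and do not separate the M1 and M2 forms of Pkm. Reads of Eno1 can be shared with its near-identical copy Eno1b, which was listed at 7.51 and 8.71 CPM.

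**Figure D1:**
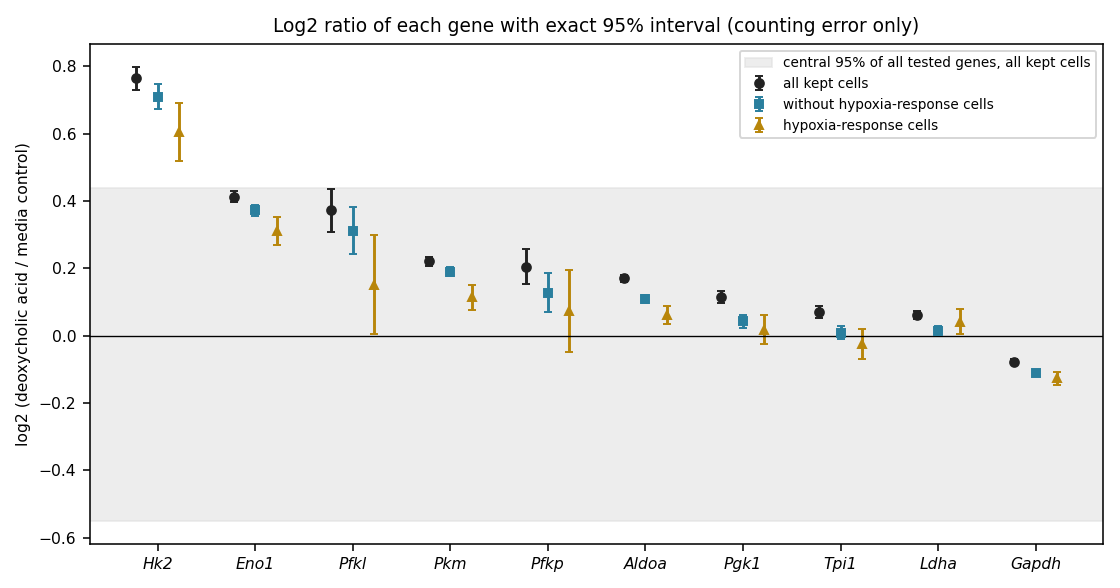
Log2 ratio of deoxycholic acid over media control for each of the 10 enzymes, in all kept cells, in cells without high Bnip3 and Ankrd37, and within the high cells; bars are exact 95% intervals that cover counting error only, and the grey band is the central 95% of all genes tested in all kept cells. Hk2 lies highest in every set, at 0.77, 0.71 and 0.61, and Gapdh lies below 0 in every set.

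Cells with high Bnip3 and Ankrd37 were then set apart, since both genes are known targets of the hypoxia-inducible factor; Bnip3 encodes a mitochondrial protein that promotes removal of mitochondria. A cell was called high when its Bnip3 and Ankrd37 UMIs together reached 4 per 10000. Such cells made up 571 of 8495 media control cells, or 6.72% (exact 95% interval 6.20 to 7.27), and 846 of 7755 deoxycholic acid cells, or 10.9% (10.2 to 11.6). The ratio of the shares was 1.62 (1.46 to 1.81). After each cell was thinned to 5000 UMIs the shares were 10.5% and 15.1%, with 662 and 647 shallower cells left out. High cells are a range and not a cell type: 326 and 455 cells lay between 3 and 5 UMIs per 10000. The 2 genes did not move together between libraries, since Bnip3 was at 74.9 and 120 CPM (log2 ratio 0.67, 0.64 to 0.71) while Ankrd37 was at 20.3 and 16.3 CPM (log2 ratio -0.32, -0.40 to -0.24). With Ankrd37 alone at 1 UMI per 10000 or more, the shares were 5.90% and 6.05%.

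Within each library, every enzyme stood higher in the high cells than in the other cells. In the media control the log2 ratio of high over other cells ran from 0.82 for Gapdh to 1.68 for Pfkl with a median of 1.31, and with deoxycholic acid it ran from 0.80 for Gapdh to 1.52 for Pfkp with a median of 1.27. All 10 enzymes were at least 1.5-fold higher in both libraries, against 9.09% of the genes tested in the media control library and 7.01% in the other library. Over all genes tested the medians were 0.05 and 0.04. Aldoa, for example, was at 826 CPM in the other media control cells and 2065 CPM in the high ones, and at 891 and 2155 CPM with deoxycholic acid. Pgk1 was at 318 and 858 CPM in media control cells, against 328 and 868 CPM in those given deoxycholic acid. Hk2 was at 69.2 and 185 CPM, and at 113 and 281 CPM with deoxycholic acid, so that its level in the high media control cells exceeded that in the other deoxycholic acid cells. The same direction held in each of the 5 stages in both libraries, 10 values per enzyme, with every interval above 0. Across these values the lowest was 0.59 for Gapdh and the highest 2.32 for Tpi1. They come from cells of the same libraries and are not replicates, and no share of all genes was taken within stages.

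The enzymes also followed Bnip3 and Ankrd37 below that threshold. In 6 bins of their summed UMIs per 10000, the median over the 10 enzymes of the level relative to cells with none was 1.21 in the bin of up to 1, 1.60 from 1 to 2, 2.03 from 2 to 4, 2.61 from 4 to 8 and 3.55 from 8 upward in the media control. With deoxycholic acid the values were 1.1995, 1.503, 2.02, 2.43 and 3.57. The medians of the libraries lay close together in each bin. Depth differed between bins, with median UMIs from 15107 to 25689 for media control and from 11246 to 19899 for deoxycholic acid, and its part in the steps was not tested. Only a cell with more than 10000 UMIs can fall in the bin of up to 1. Stage differed as well: in the media control, 43.6% of Elane cells and 64.3% of Ngp and Retnlg cells had no UMI of either gene. The part of stage in the steps was not tested either. In cells with no UMI of either gene, the median log2 ratio of deoxycholic acid over media control was 0.08 and 8 of 10 enzymes were higher. Hk2 there was at 59.9 and 98.7 CPM (0.72, 0.66 to 0.78). No median or share of all genes was taken within the bins, so neither the steps nor this count is set against other genes.

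**Figure D2:**
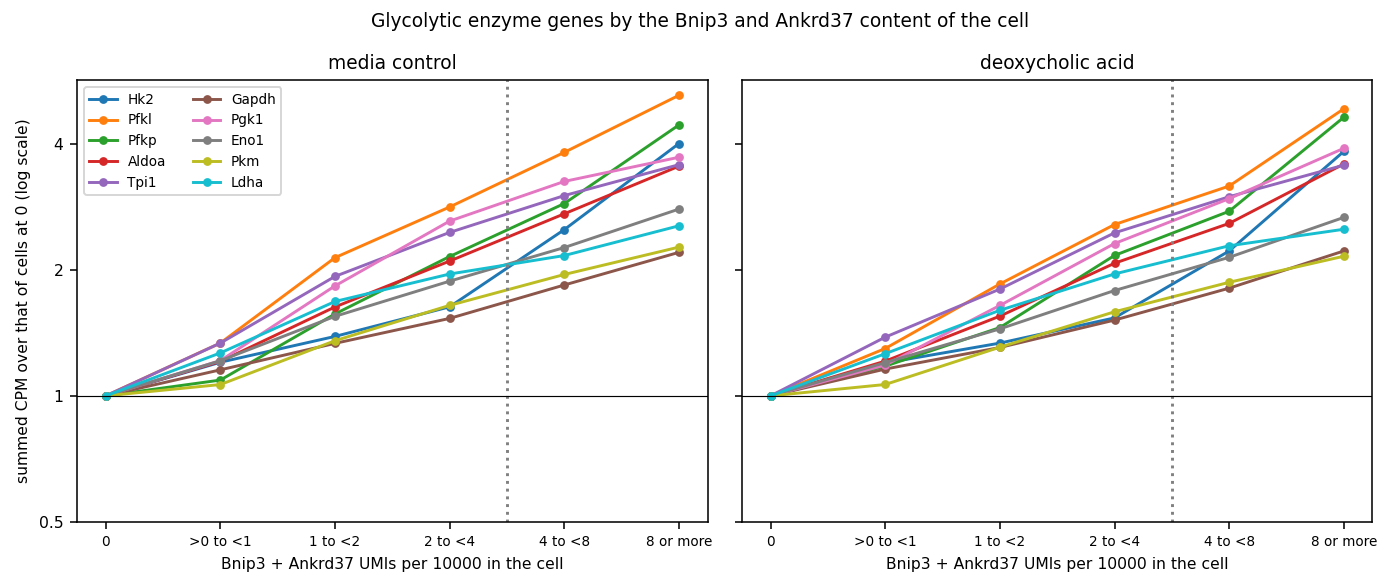
Level of each enzyme relative to cells with no Bnip3 or Ankrd37 UMI (log scale) across 6 bins of Bnip3 plus Ankrd37 UMIs per 10000, by library; each line is 1 enzyme and the dotted line marks the threshold of 4. The median over the 10 lines in the last bin is 3.55 for media control and 3.57 for deoxycholic acid.

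With the high cells left out, 7924 media control and 6909 deoxycholic acid cells remained, and the median log2 ratio over the 10 enzymes was 0.12, against 0.19 in all kept cells, while the median of the 4662 genes tested without the high cells was 0.04. Hk2 was at 0.71 (0.67 to 0.75), Eno1 at 0.37 (0.36 to 0.39) and Pfkl at 0.31 (0.24 to 0.38). Those 3 again passed 1.2-fold higher, with 12.9% of genes passing, and no enzyme passed 1.2-fold lower, with 11.1% of genes passing. Tpi1 was at 0.01 (-0.01 to 0.03) and Ldha at 0.01 (0.00 to 0.03), the latter at -0.03 when scaled by the median of gene ratios. Gapdh was further below 0 than in all kept cells, at -0.11 (-0.12 to -0.10). Within the high cells the median was 0.07, Hk2 was at 0.61 and Eno1 at 0.31.

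Levels by stage in the media control differed between enzymes. From Elane cells to Ngp and Retnlg cells, Pkm went from 509 to 839 CPM (log2 0.72, 0.65 to 0.80), Pfkp from 34.8 to 51.4 CPM (0.56, 0.25 to 0.86) and Pfkl from 23.5 to 33.3 CPM (0.50, 0.12 to 0.87). Tpi1 went the other way, from 433 to 196 CPM (-1.14, -1.29 to -0.996). Gapdh went from 2984 to 1954 CPM, Ldha from 758 to 499 CPM, Hk2 from 94.5 to 62.0 CPM and Eno1 from 473 to 318 CPM, log2 ratios of -0.61, -0.60, -0.61 and -0.57. Aldoa went from 877 to 747 CPM (-0.23, -0.31 to -0.16). Pgk1, at 321 and 335 CPM, did not differ beyond counting error (0.06, -0.05 to 0.18). Ngp cells lay between Elane cells and Ngp and Retnlg cells for Tpi1, Gapdh, Ldha, Pfkl, Pfkp, Eno1 and Pkm. For Aldoa they also lay between, but at 875 CPM they did not differ from Elane cells beyond counting error. Over all genes tested the median log2 ratio of the same comparison was -0.55, and over the 10 enzymes it was -0.40. Median depth was 25274 UMIs in Elane cells and 6073 in Ngp and Retnlg cells, and its part in these values was not tested.

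With deoxycholic acid, Pkm and Tpi1 again lay at the ends. Pkm went from 547 to 1038 CPM (log2 0.92, 0.84 to 1.01) and Tpi1 from 448 to 242 CPM (-0.89, -1.07 to -0.72). Pgk1 went from 307 to 434 CPM (0.50, 0.37 to 0.63), while Aldoa, at 942 and 965 CPM, did not differ beyond counting error (0.04, -0.05 to 0.12). For Pfkl the interval also included 0 (0.43, -0.04 to 0.87). In this library the median log2 ratio of the same comparison was -0.77 over all genes tested and -0.17 over the 10 enzymes. Across the 10 sums of stage and library, the levels of Tpi1 and Ldha had a Pearson r of 0.96 and those of Pfkp and Pkm 0.94, while Gapdh and Pkm had -0.65. These correlations describe 10 points from 2 libraries, which share library and depth.

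**Figure D3:**
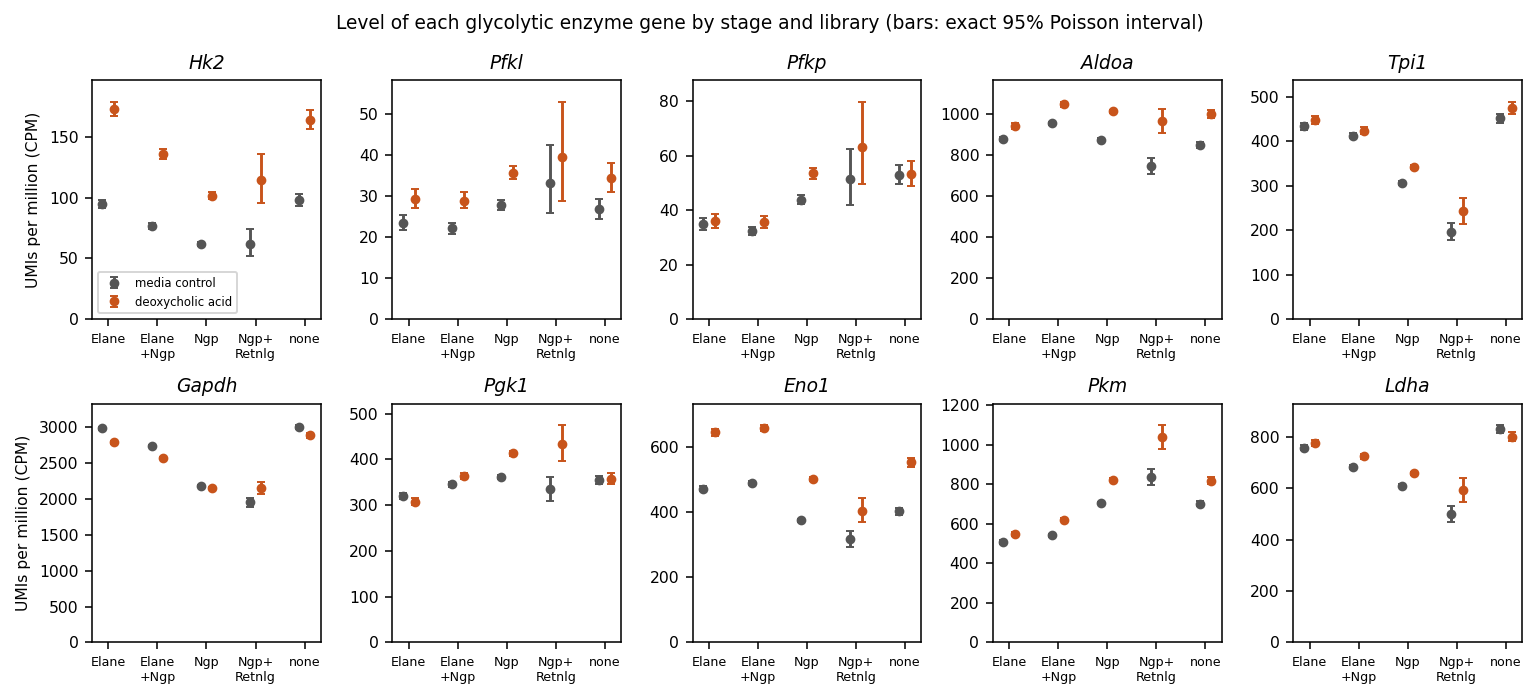
Level of each enzyme in CPM (vertical axes start at 0 in each panel) in 5 stages, for the media control and deoxycholic acid libraries; bars are exact 95% intervals of the UMI sums. Pkm goes from 509 to 839 CPM and Tpi1 from 433 to 196 CPM between Elane cells and Ngp and Retnlg cells of the media control.

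Hk2 and Eno1 were higher with deoxycholic acid in all 4 neutrophil stages and in the cells above no threshold. The Hk2 log2 ratio ran from 0.72 in Ngp cells to 0.88 in Ngp and Retnlg cells, where it was at 62.0 and 114 CPM, and its interval lay above 0 in each stage. For Eno1 it ran from 0.35 to 0.46, with 473 and 646 CPM in Elane cells. Pfkl ran from 0.25 to 0.39, and in Ngp and Retnlg cells its interval included 0 (-0.33 to 0.82). Aldoa, Tpi1, Pfkp and Pkm were above 0 in all 5 stages, Pgk1 and Ldha in 4 and Gapdh in 1. The Pfkp interval included 0 in 3 of the 5, Elane cells (0.05, -0.09 to 0.18), Ngp and Retnlg cells (0.30, -0.16 to 0.75) and cells above no threshold (0.01, -0.15 to 0.16). Pkm, for instance, was at 706 and 825 CPM in Ngp cells (0.22, 0.21 to 0.24). Beside these counts, the share of all genes tested with a ratio above 0 was 45.2% in Elane cells and 57.6% in Elane and Ngp cells. It was 65.0% in Ngp cells, 49.9% in Ngp and Retnlg cells and 49.9% in cells above no threshold.

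Member medians differed between stages. The median log2 ratio over the enzymes was 0.08 in Elane cells, where 3 of 10 were at least 1.2-fold higher and 11.2% of genes were. In Elane and Ngp cells it was 0.14, with 3 of 10 and 15.9% of genes. In Ngp cells it was 0.22, with 4 of 10 and 11.8% of genes. In Ngp and Retnlg cells it was 0.31, with 7 of the 9 measured and 20.7% of genes, Pfkl having too few UMIs there. In cells above none of the thresholds it was 0.15, with 3 of 10 and 15.5% of genes. Beside them, the medians of all genes tested were -0.02, 0.04, 0.08, 0.00 and 0.00. The share of high Bnip3 and Ankrd37 cells stood at 5.30% and 10.5% in Elane cells, 7.32% and 10.8% in Ngp cells and 9.19% and 16.2% in Ngp and Retnlg cells. Without those cells the enzyme medians in the same order of stages were 0.02, 0.10, 0.18, 0.12 (over 8 measured enzymes) and 0.09. The medians of all genes tested were then -0.03, 0.05, 0.08, -0.04 and -0.01. In Ngp and Retnlg cells only 1 of the 8 measured enzymes was then at least 1.2-fold higher, and 2 intervals lay above 0. The share of all genes past that fold was not taken without the high cells. Hk2 in these Ngp and Retnlg cells was at 0.51 (0.05 to 0.96), against 0.88 with the high cells.

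**Figure D4:**
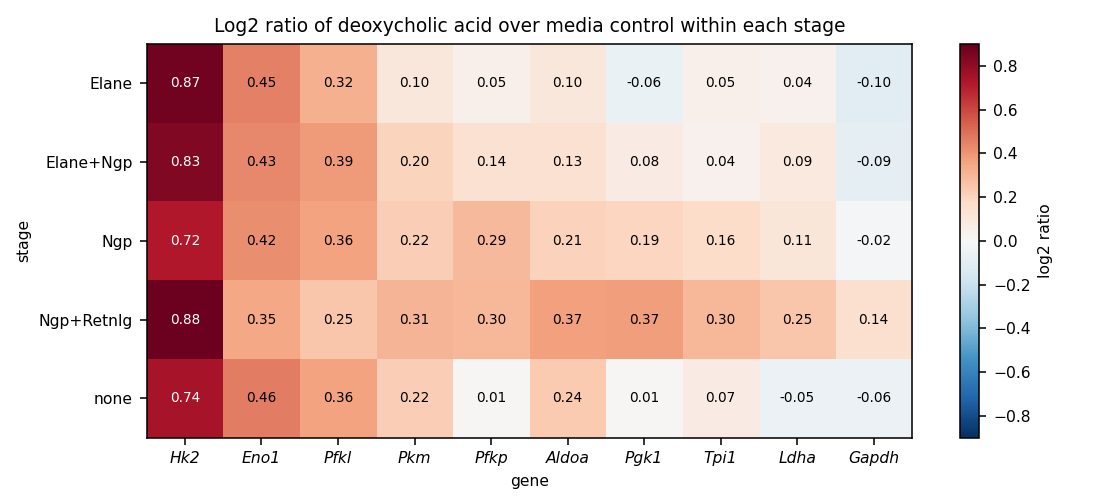
Log2 ratio of deoxycholic acid over media control for each enzyme (columns) in each of 5 stages (rows), printed in the cells and shown by colour, red where higher with deoxycholic acid and blue where lower. Hk2 lies between 0.72 and 0.88 in every stage, while Gapdh lies between -0.10 and 0.14.

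Transcript length moved with the ratio across genes. Over 4652 tested genes with a length (that of the longest protein-coding transcript in the GENCODE annotation of GRCm38), Spearman's rho between length and log2 ratio was 0.45, across genes that are not independent, and over the 10 enzymes it was 0.81. Hk2 has the longest transcript of the 10, 5513 nucleotides, and Gapdh the shortest, 1420 nucleotides. Against the median of the 200 genes nearest in length, Hk2 was higher by 0.62 on the log2 scale, Eno1 by 0.39, Pfkl by 0.29, Aldoa by 0.28, Pfkp by 0.08 and Gapdh by 0.07. Without the high cells Pfkp lay 0.0061 above that median. All 200 neighbours of Hk2 had a lower ratio than Hk2, and 98% of those of Eno1 had a lower ratio than Eno1. The cause of the trend with length was not tested.

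**Figure D5:**
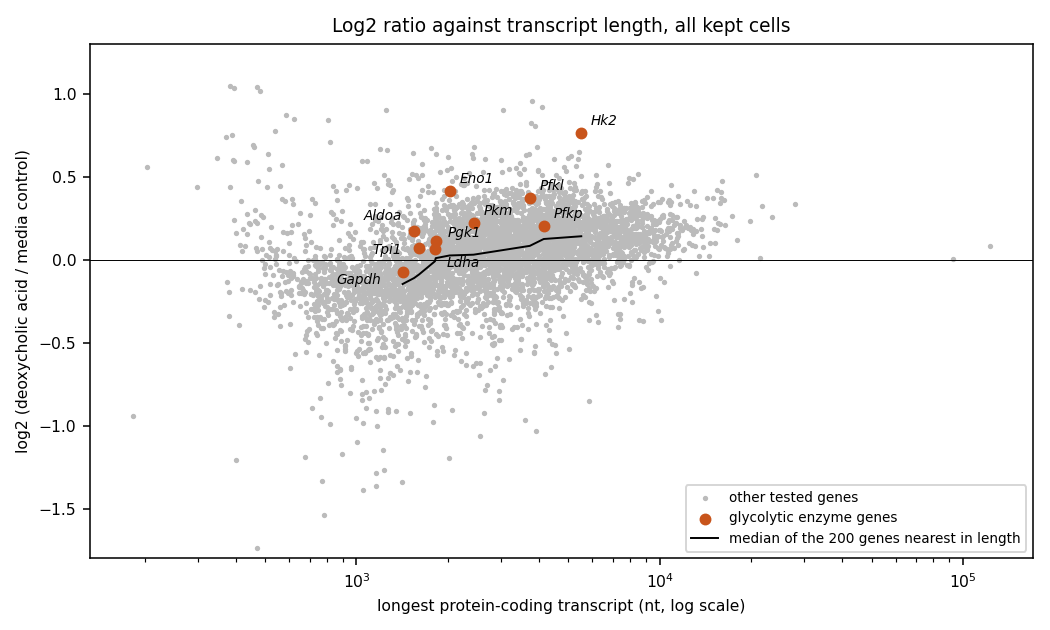
Log2 ratio of deoxycholic acid over media control against transcript length in nucleotides (log scale) for the 4652 tested genes with a length, with the 10 enzymes named and a line for the median of the 200 genes nearest in length. Hk2, at 5513 nucleotides and 0.77, lies above the line and Gapdh, at 1420 nucleotides and -0.08, lies lowest of the enzymes.

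Depth also moved with the member median. In cells with under 8000 UMIs the median log2 ratio over the enzymes was 0.31, from 8000 to 16000 UMIs it was 0.25, from 16000 to 24000 it was 0.10, and from 24000 upward it was 0.08. Hk2 stayed at 0.83, 0.80, 0.79 and 0.80 in these bins, and Eno1 at 0.36, 0.57, 0.43 and 0.41. Tpi1, by contrast, went from 0.31 in the shallowest bin to 0.03 in the deepest. Neither a median nor a share of all genes was taken within these bins, so the values are not set against other genes. Median depth also differed between stages, and the part of stage in the values by depth was not tested.

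Other genes of the same metabolism were read from fixed lists. The trend with transcript length was not subtracted for the genes of these lists, and its part in their ratios was not tested. Over all genes tested, 57.0% were higher with deoxycholic acid, 13.1% at least 1.2-fold higher and 11.1% at least 1.2-fold lower, and the counts stand beside these shares. Of 20 other glycolytic enzymes and isoforms, 4 were measured. Gpi1, the phosphoglucose isomerase, was at 710 and 862 CPM (log2 ratio 0.28, 0.27 to 0.29) and Hk1, the constitutive hexokinase, at 49.5 and 59.1 CPM (0.26). Pgam1, the mutase of the step before enolase, was at 355 and 320 CPM (-0.15), and Hk3, a hexokinase of myeloid cells, at 35.6 and 28.4 CPM (-0.33). The pathway's steps therefore lay on both sides of 0. Of 12 regulators 4 were measured and all had ratios above 0, with a median of 0.16. Txnip, which restrains glucose uptake, was at 83.0 and 84.9 CPM with an interval that included 0 (0.03, -0.0042 to 0.07). Pdk1, a kinase that holds back pyruvate dehydrogenase, was at 21.6 and 27.3 CPM (0.34, 0.27 to 0.41).

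Glucose and lactate transport gave 5 measured genes of 10, with a median of -0.02. Slc2a3, a glucose transporter, was at 67.5 and 90.0 CPM (0.41, 0.38 to 0.45) and Slc16a3, a lactate exporter, at 57.9 and 74.0 CPM (0.36). Mpc1 and Mpc2, which together carry pyruvate into mitochondria, were at 445 and 283 CPM (-0.66, -0.67 to -0.64) and at 597 and 511 CPM (-0.22). Of the pentose phosphate pathway all 7 genes were measured and 5 were higher, with a median of 0.12; G6pdx, its entry enzyme, was at 134 and 169 CPM (0.34), Tkt, the transketolase, at 641 and 698 CPM (0.12), and Taldo1, the transaldolase, at 633 and 570.4 CPM (-0.15). For gluconeogenesis and glycogen, 6 of 13 genes were measured, all higher, with a median of 0.26. Among these Gys1, the glycogen synthase, was at 53.6 and 71.0 CPM (0.41) and Pygl, the glycogen phosphorylase, at 237 and 299 CPM (0.34).

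Of pyruvate dehydrogenase and the citric acid cycle, all 19 genes were measured. Of these 9 were higher and 10 lower, none passed 1.2-fold higher and 7 passed 1.2-fold lower, with a median of -0.07. Mdh2, the mitochondrial malate dehydrogenase, was at 241 and 191 CPM (-0.34). The lower end held Sdhd, a membrane anchor of succinate dehydrogenase, at 38.8 and 16.1 CPM (-1.26, -1.34 to -1.19), and the higher end Dlat, a pyruvate dehydrogenase subunit, at 23.2 and 26.8 CPM (0.21). Of 17 hypoxia-induced genes 11 were measured, 8 had ratios above 0 and the median was 0.16. Bnip3l, a relative of Bnip3, was at 199 and 212 CPM (0.09), Fam162a at 187 and 161 CPM (-0.22), and Higd1a at 236 and 239 CPM with an interval that included 0 (0.02, -0.0028 to 0.04). Hif1a, the oxygen-regulated subunit of the hypoxia-inducible factor, was at 52.2 and 70.5 CPM (0.43, 0.39 to 0.48), and Egln2, an oxygen-sensing hydroxylase that marks that subunit for breakdown, was at 20.3 and 21.4 CPM (0.08). Mlx, a partner of glucose-sensing transcription factors, was at 39.6 and 30.9 CPM (-0.36).

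The genes most like the members' mean z score across the 10 stage and library sums were sought among 2224 genes with at least 50 CPM. Sf1 had a Pearson r of 0.94, Chd4 0.91, Ppp2r2d 0.89 and Son 0.89, followed by Gps2, Nsrp1, Sec61a1, Tnrc6a, Zrsr2 and Sars, down to 0.83. Cd81 was lowest at -0.93, after Arpc4, Nfu1, Trem3 and Selenok. Of the enzymes themselves Hk2 had an r of 0.85 with that mean, which includes it, and Pkm 0.24.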

How the data were processed

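Per the labels' protocols, single cells of 2 groups went through 10x Chromium 3′ chemistry (kit version 3.1), aiming at 8000 cells for each sample. What the authors deposited are raw UMI counts, 1 value for a gene in a cell. The submitters' processing notes name Cell Ranger 6.0. Genome build, annotation and filters on cells: not given in the sources used here. Lithocholic acid, which the design also names, was not analysed here. The 10 members and all lists were chosen with earlier results of these data known, so they are no independent support.

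The media control held 9346 barcodes and the deoxycholic acid library 8520. Scrublet (scanpy 1.11.5) marked under 0.5% of cells by its own threshold, so cells at or above the score that bounds the highest 6% were removed, which with ties took 6.27% (media control) and 6.80% (deoxycholic acid). CPM are a gene's summed UMIs over the summed total of the same cells. Log2 ratios have exact 95% binomial (Clopper-Pearson) intervals, levels have exact Poisson intervals and shares exact binomial ones; all cover counting error only. Genes were tested against a fold of 1.2 (1.5 for high over other cells) at 20 CPM and 50 UMIs. Free RNA in droplets was not removed. Ratio and interval code was tested on simulated data. Promoter windows come from RefSeq (GRCm38.p6) and lengths from GENCODE; 99.6% of tested genes had a length. The rule for genes named outside the members was, per fixed list, the 4 of highest mean CPM and those of largest and smallest ratio, with the 10 genes most and 5 least like the members' mean; not every gene it gives is printed, and Slc16a3 was named for its role after its value was seen. Python 3.11.15, numpy 2.4.6, scipy 1.17.1 and pandas 2.3.3 were used.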

Additional observations from a re-analysis of the deposited data

Results flagged for a closer look

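Gapdh, Pgk1 and Ldha had log2 ratios of deoxycholic acid over media control on both sides of 0 between stages, with the exact 95% interval of each value below clear of 0; the difference between stages was not tested. Gapdh was at -0.0967 in Elane cells, -0.0904 in Elane and Ngp cells, -0.0175 in Ngp cells and -0.0558 in cells above none of the thresholds, but at 0.141 (0.07 to 0.21) in Ngp and Retnlg cells. Pgk1 was at -0.0624 (-0.11 to -0.02) in Elane cells, and at 0.0767, 0.191 and 0.375 in Elane and Ngp, Ngp, and Ngp and Retnlg cells. Ldha was at -0.0525 (-0.09 to -0.01) in cells above none of the thresholds, and at 0.0374, 0.0896, 0.111 and 0.248 in the same order of stages from Elane cells on. The Ngp and Retnlg values rest on 283 and 204 cells. Without the high Bnip3 and Ankrd37 cells the intervals there all included 0: Gapdh was at 0.01 (-0.07 to 0.10), Pgk1 at 0.10 (-0.11 to 0.31) and Ldha at 0.11 (-0.06 to 0.28).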

How the results depend on the processing

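The alternatives were other cell filters, doublet removal, weightings, scalings, depth, length, staging and thresholds; 5 more were chosen after seeing the data (bins of UMIs per cell, cells with no Mki67 or Top2a UMI, cells with no Bnip3 or Ankrd37 UMI, Bnip3 alone and Ankrd37 alone). The median log2 ratio over the enzymes in all kept cells, 0.19, was 0.22 as a mean over cells, 0.13 scaled by the median of gene ratios, 0.21 without the 20 most abundant genes, 0.22 thinned to 5000 UMIs, 0.14 for enzymes of at least 100 CPM and 0.23 in cells with no Mki67 or Top2a UMI. Without high Bnip3 and Ankrd37 cells it went from 0.12 to 0.0696 when scaled by the median of gene ratios, and the mean over stages, 0.18, went to 0.12 with that scaling and to 0.20 when thinned. The ratio of the shares of high cells, 1.62, was 1.45 thinned and 1.45 at a threshold of 2 UMIs per 10000. With Bnip3 alone at 4 UMIs per 10000 it was 1.91, and with Ankrd37 alone at 1 UMI per 10000 it was 1.03. The thresholds of these single genes differ, so their ratios are not like for like. The count of enzymes past the fold, 3, was 6 at 1.1-fold and 1 at 1.5-fold. The share of all genes past these other folds was not taken, so both counts stand without a background. Without the high cells, scaling by the median of gene ratios gave Pgk1 -0.0068 and Ldha -0.0345, and with the length trend subtracted Gapdh was at 0.0700 in all kept cells and 0.0307 without the high cells. Of 180 single-enzyme values under alternatives, 92 stayed within the counting interval and 84 moved beyond it; the 4 others are those just given. Among the 84 is 1 more change of sign, Tpi1 without the high cells at -0.0401 when scaled by the median of gene ratios, whose interval had included 0. The cause of these moves was not tested. No paired analysis was possible because the cell names carry no replicate number and no test was made. With 1 library per group, counting error is the only error measured, and differences between cultures are not covered.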
